A study of Mus musculus with 12 samples.

Results

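The intermediate progenitor cells (IPCs) of the embryonic mouse cortex fell into 2 of the 25 clusters drawn by the authors, Cluster 17, named mitotic, and Cluster 6, named non-mitotic, and each embryo's nuclei of Cluster 17 were compared with the nuclei of Cluster 6 of the same embryo. The members were all nuclei of both clusters, which came to 993 in Cluster 17 and 3764 in Cluster 6, or 4757 of the 50550 nuclei of the series, from 11 embryos. The embryos were C57BL/6J, collected on embryonic day 14, from dams injected intraperitoneally once a day with saline or with ethanol (EtOH) at 2.5 g/kg, in 6 injections from embryonic day 8.5. The 5 saline embryos came from 2 dams (S1-1 and S1-2 from dam S1, and S2-1, S2-2 and S2-4 from dam S2), and the 6 EtOH embryos also came from 2 dams (E1-1 and E1-2, and E2-1 to E2-4). Library batch 1 held the embryos of S1 and E1, and batch 2 those of S2 and E2, so neither treatment was confined to a batch, and embryos of a dam shared that dam's injections. Embryo S2-3, the other saline sample in the labels, was not used here. Nuclei were isolated from the cortices of both hemispheres and sequenced by single-nucleus RNA sequencing (snRNAseq), which counts RNA molecules by unique molecular identifiers (UMIs) and reads mostly unspliced nuclear RNA.

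IPCs, also called basal progenitors, are born from radial glial cells (RGCs) at the ventricle, settle in the subventricular zone, express the T-box factor Eomes (Tbr2), and divide to give glutamatergic projection neurons. A cycling nucleus copies its DNA in S phase with the MCM helicase and the DNA polymerases, then builds the mitotic machinery of cyclin B and its kinase Cdk1, condensins, kinetochores, spindle motors and the cytokinetic ring. Much of this programme is transcribed late in the cycle and falls sharply after division, while the neurogenic factors Neurog2, Eomes and the Neurod family mark progress towards the neuron.

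Since the authors drew the clusters from the expression of these same nuclei, every difference in expression between Cluster 17 and Cluster 6 given here is a description of how the clusters are made up and how regularly a difference recurred over embryos, and no p-value is given for a gene between them. A gene was called higher or lower where edgeR's quasi-likelihood test on the counts summed per embryo and cluster, with the embryo as a block, gave an adjusted p under 0.05 and the fold change was below 0.8 or above the reciprocal of 0.8. Levels are UMI counts of the summed nuclei, scaled to a total of 1000000 (CPM), and log2 fold changes are from the edgeR fit. Their standard error (SE) was derived as the absolute log2 fold change divided by the square root of the test's F statistic. By this rule 2015 genes of 11265 tested were higher in Cluster 17 (17.9%) and 1715 were lower (15.2%), with a median log2 fold change of -0.03 over all genes tested. Differences past 2-fold were mostly in 1 direction, with 720 genes higher and 193 lower. Without regard to any test, 1196 genes were higher in Cluster 17 in all 11 embryos and 841 were lower in all 11.

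Each embryo gave 42 to 175 nuclei of Cluster 17 and 184 to 614 of Cluster 6, with 423368 to 1613282 UMIs and 957480 to 5259037 UMIs in their sums. Doublets were not called here. Over all clusters 314 of 50226 cell barcodes occurred in more than 1 embryo, and among the 4757 barcodes of the IPC nuclei, counted within this smaller pool, 0 did. Littermate libraries were not repeats of each other, since their whole-library counts differed by a chi-square of at least 4.33 per gene, where repeated draws of 1 library would give about 1.

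The markers from which the authors named the clusters, Top2a and Mki67, stood apart in every embryo, as the naming requires. Top2a, the topoisomerase that untangles DNA before chromosomes separate (chromosome 11, 98992943 to 99024189, minus strand, GRCm38, GENCODE M21), ranged from 683 to 995 CPM in Cluster 17 with a median of 754, and from 12.6 to 67.0 CPM in Cluster 6 with a median of 24.98. Its log2 fold change was 4.91 (SE 0.21, n = 11 embryos) and the levels did not overlap. Mki67, the coat protein of mitotic chromosomes (chromosome 7, 135689784 to 135716361, minus strand), ranged from 242 to 392 CPM in Cluster 17 and from 20.7 to 57.4 CPM in Cluster 6, a log2 fold change of 3.26 (SE 0.17). The IPC marker Eomes (chromosome 9, 118478212 to 118486132, plus strand) was present in both clusters and lower in the mitotic one, with 160 to 299 CPM (median 189) in Cluster 17 against 343 to 488 CPM (median 416) in Cluster 6. Its log2 fold change was -1.05 (SE 0.10), the levels did not overlap, and even the lower values stood above those of the mitotic RGCs of Cluster 2, with a mean of 22.4 CPM, and of the striatal neurons of Cluster 11, with 12.6 CPM.

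**Figure D1:**
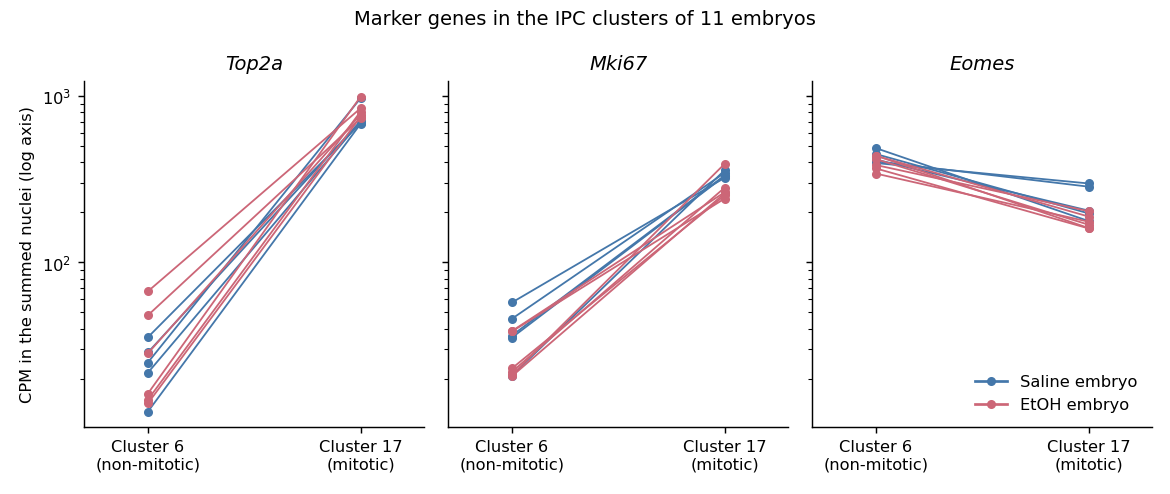
CPM of Top2a, Mki67 and Eomes on a log axis in the summed nuclei of Cluster 6 and Cluster 17, each line being 1 embryo, blue for saline and red for EtOH. All 11 lines rise for Top2a and Mki67 and all 11 fall for Eomes, with no overlap between the clusters.

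In single nuclei the same picture held at equal depth. Nuclei of Cluster 17 held more UMIs than those of Cluster 6, so each nucleus was thinned to 2000 UMIs, which left out 2 nuclei of Cluster 17 and 32 of Cluster 6, and striatal neurons of Cluster 11 were set beside them as cells that should lack these genes. At least 1 UMI of Top2a was found in 74.98% ± 4.87 (SD, n = 11 embryos) of the thinned nuclei of Cluster 17, in 3.90% ± 1.595 of Cluster 6 and in 4.76% ± 1.14 of Cluster 11. Mki67 was found in 46.6% ± 3.27, 5.52% ± 2.01 and 4.23% ± 1.81. The choice of neurons mattered: Top2a had a mean of 28.4 CPM in Cluster 6 and 59.2 CPM in Cluster 11, but 11.3 CPM in the early projection neurons of Cluster 9 and 13.8 CPM in the callosal neurons of Cluster 1. For Mki67 the means were 32.7, 33.4, 25.6 and 23.6 CPM in that order. Without thinning, Top2a was found in 92.1% of the nuclei of Cluster 17, 8.41% of Cluster 6 and 10.1% of Cluster 11, whose median UMIs per nucleus over embryos were 5520 to 11058, 3188 to 7387 and 4596 to 10533.

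Eomes was detected far above the striatal level in both IPC clusters. The thinned share of nuclei with Eomes was 34.1% ± 7.93 in Cluster 17, 53.5% ± 3.55 in Cluster 6 and 2.06% ± 1.01 in Cluster 11. Neurog2, the proneural factor that starts the neuronal programme, was found in 17.3% ± 2.55, 23.3% ± 2.54 and 1.203% ± 0.77. Without thinning, the shares in the same order were 67.1%, 78.6% and 6.52% for Eomes and 45.0%, 45.6% and 4.56% for Neurog2. Summed over the 85 tested genes of the 3 mitotic lists (cyclins and kinases, kinetochore, spindle), a thinned nucleus held a mean of 25.7 UMIs in Cluster 17, 2.74 in Cluster 6 and 2.83 in Cluster 11. For the DNA replication list the means were 7.45, 2.23 and 1.37 UMIs. Against projection neurons the G2/M list also stood higher in Cluster 6, with summed levels of 212 to 270 CPM against 110 to 194 CPM in Cluster 9 and 128 to 190.1 CPM in Cluster 1, and the kinetochore and spindle lists had medians of 615 and 517 CPM in Cluster 6 against 469 and 435 CPM in Cluster 9.

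**Figure D2:**
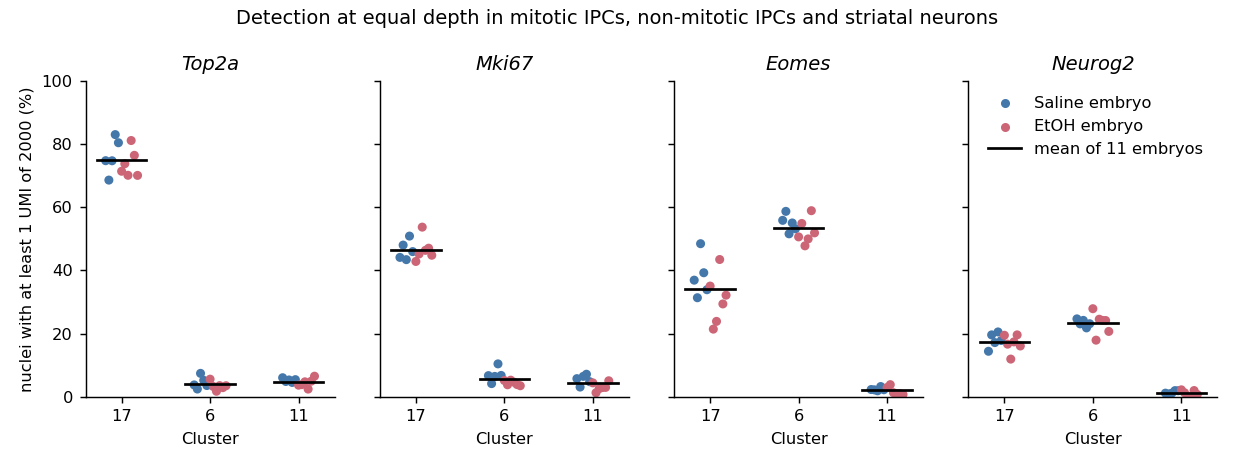
Percentage of nuclei with at least 1 UMI of each gene after thinning each nucleus to 2000 UMIs, in mitotic IPCs (Cluster 17), non-mitotic IPCs (Cluster 6) and striatal neurons (Cluster 11), each point being 1 embryo and each bar the mean of 11 embryos. Top2a and Mki67 stand near the striatal level in Cluster 6, and Eomes and Neurog2 stand above it in both IPC clusters.

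The mitotic machinery was higher in Cluster 17 almost throughout. The lists of the G2/M cyclins and kinases, of the kinetochore and checkpoint, and of the spindle and cytokinesis together held 85 tested genes, of which 84 were called higher and 0 lower, with a median log2 fold change of 3.76 against -0.03 over all genes. Over all genes the shares called higher and lower were 17.9% and 15.2%. In 82 of the 85 the lowest embryo of Cluster 17 stood above the highest embryo of Cluster 6. That arrangement was found in 5.44% of all genes tested. All 24 tested genes of the cyclin and kinase list were called higher (median 3.22), with 32 of 33 of the kinetochore list (median 3.64) and all 28 of the spindle list (median 4.04). The exception was Zwint, a kinetochore protein, at a log2 fold change of 0.18.

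Among the cyclins and kinases, Cdc25c, the phosphatase that switches on Cdk1, ranged from 61.0 to 149 CPM in Cluster 17 and from 0.78 to 7.38 CPM in Cluster 6, a log2 fold change of 4.88 (SE 0.15). Ccnf, the cyclin F subunit of an SCF ubiquitin ligase, ranged from 68.5 to 142 CPM against 1.18 to 7.88 CPM, a log2 fold change of 4.78 (SE 0.17). Foxm1, the transcription factor of the G2/M genes, was lower in level but changed as much, with 25.98 to 55.2 CPM against 0 to 4.18 CPM (4.75, SE 0.23). The mitotic pair itself, the kinase Cdk1 (4.14, SE 0.17) and cyclin B1, Ccnb1 (4.12, SE 0.15), had medians of 53.1 and 49.6 CPM in Cluster 17 and of 2.66 and 3.46 CPM in Cluster 6.

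Of the kinetochore genes, Nuf2 and Ndc80, partners in the complex that grips microtubules, had log2 fold changes of 4.78 (SE 0.17) and 4.63 (SE 0.12). Ndc80 ranged from 113 to 169 CPM in Cluster 17 and from 1.77 to 9.94 CPM in Cluster 6. Knl1, the scaffold on which the outer kinetochore and the checkpoint assemble, ranged from 276 to 472 CPM against 8.86 to 26.6 CPM (4.56, SE 0.15). The largest difference of any gene called higher belonged to the spindle list: Kif2c, a microtubule-depolymerising kinesin of the centromere, stood at 62.8 to 103 CPM in Cluster 17 and at 0 to 5.33 CPM in Cluster 6, a log2 fold change of 5.47 (SE 0.20). Kif14, a kinesin of the midbody, and Hmmr, a spindle pole protein, followed at 4.95 (SE 0.16) and 4.89 (SE 0.12). Among the 10 largest differences of genes of at least 20 CPM with 1 direction in all 11 embryos, these were joined by Troap, Ska1, Depdc1b and Pif1 at 4.81 to 5.17, beside Top2a, Cdc25c and Ccnf.

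The start regions of these genes are shown because many late cell cycle promoters are known to carry CCAAT boxes (bound by NF-Y), a CHR element (TTTGAA, bound by the MuvB complexes) or E2F sites. The lines give 200 bases before the RefSeq start, which can differ from that of GENCODE, in the gene's direction, from RefSeq promoters on GRCm38.p6, for Top2a (chr11:99024190-99024389, minus strand), Ccnf (chr17:24251410-24251609, minus), Cdk1 (chr10:69352913-69353112, minus), Ccnb1 (chr13:100786487-100786686, minus), Mcm10 (chr2:5012792-5012991, minus) and Eomes (chr9:118477989-118478188, plus), the last as the IPC marker that was lower in Cluster 17. Capitals mark the box CCAAT, the CHR letters TTTGAA and the E2F letters (TTTCCCGC, TTTCGCGC, TTTGCCGC or TTTGGCGC) on either strand.
Top2a: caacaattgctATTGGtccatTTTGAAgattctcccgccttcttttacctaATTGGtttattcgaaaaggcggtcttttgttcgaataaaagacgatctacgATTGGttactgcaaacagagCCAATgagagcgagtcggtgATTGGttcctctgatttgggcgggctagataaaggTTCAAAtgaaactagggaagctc
Ccnf: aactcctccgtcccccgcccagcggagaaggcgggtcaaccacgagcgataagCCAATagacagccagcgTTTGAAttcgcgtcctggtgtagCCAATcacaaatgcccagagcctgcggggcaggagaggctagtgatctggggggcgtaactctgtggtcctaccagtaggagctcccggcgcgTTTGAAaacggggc
Cdk1: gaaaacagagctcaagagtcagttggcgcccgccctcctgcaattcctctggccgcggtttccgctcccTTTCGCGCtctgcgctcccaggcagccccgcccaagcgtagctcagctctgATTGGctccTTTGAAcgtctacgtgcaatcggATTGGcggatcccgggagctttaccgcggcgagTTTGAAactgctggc
Ccnb1: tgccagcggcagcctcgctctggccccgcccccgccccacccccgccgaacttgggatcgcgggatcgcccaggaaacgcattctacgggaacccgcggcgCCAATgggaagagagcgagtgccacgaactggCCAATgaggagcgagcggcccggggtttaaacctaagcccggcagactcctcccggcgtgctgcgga
Mcm10: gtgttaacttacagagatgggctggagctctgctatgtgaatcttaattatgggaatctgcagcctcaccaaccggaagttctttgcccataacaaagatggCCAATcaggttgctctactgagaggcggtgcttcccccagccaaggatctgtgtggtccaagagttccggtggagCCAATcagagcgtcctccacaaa
Eomes: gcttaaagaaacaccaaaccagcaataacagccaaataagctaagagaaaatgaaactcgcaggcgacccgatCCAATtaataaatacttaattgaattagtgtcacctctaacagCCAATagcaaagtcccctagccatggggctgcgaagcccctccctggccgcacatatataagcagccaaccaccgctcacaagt

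The RefSeq starts of Ccnf, Cdk1 and Ccnb1 lie inside their GENCODE genes, so that the last printed bases of each window lie within the gene as GENCODE draws it. That of Kif2c lies farther inside, with the whole window in the gene, and its bases are not shown (0 CCAAT matches and 1 TTTGAA match). Top2a held 5 CCAAT matches and 2 TTTGAA matches in this window, and Ccnf and Cdk1 2 of each, with 1 E2F match in Cdk1. Ccnb1, Mcm10 and Eomes held 2 CCAAT matches each and no other. Over whole RefSeq promoters (250 bases before to 50 after the start, the first entry of each gene, found for 8516 of the 11265 genes tested), TTTGAA was found in 77.8% of the 27 genes of the spindle list with an entry, 41.4% of the 29 of the kinetochore list and 46.7% of the 15 of the cyclin and kinase list, against 11.8% of 8516 genes tested and 18.1% of all 27025 promoters in the table. For the 38 genes of the DNA replication list it was 10.5%, while the E2F letters were found in 39.5% of them, against 4.29% of the genes tested. CCAAT was found in 71.8% of the 71 promoters of the joined mitotic lists, 63.2% of the replication list, 15% of the 20 of the migration and axon list, 21.1% of the 19 of the synapse and channel list and 39.6% of the genes tested. Among the 188 promoters of genes more than 4-fold higher in Cluster 17, 46.3% held TTTGAA and 66.0% held CCAAT. Among all genes called higher, with 1516 promoters, the shares were 17.7% and 45.1%, against 9.32% and 38.7% of the 1287 promoters of genes called lower. Both strands were searched and none of these motifs contains another, and a match describes the letters and not a bound site.

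Genes of S phase were also higher in Cluster 17, by less. Of the 47 tested genes of the DNA replication list 44 were called higher and 0 lower, beside 17.9% and 15.2% of all genes. The median log2 fold change was 1.56, and 10 genes were more than 4-fold higher. Mcm10, which activates the replicative helicase, ranged from 27.1 to 59.1 CPM in Cluster 17 and from 3.14 to 10.8 CPM in Cluster 6 (2.97, SE 0.15). Ticrr, which helps load Cdc45 onto origins, and Tk1, the thymidine kinase of the salvage pathway, followed at 2.89 (SE 0.11) and 2.87 (SE 0.16). Subunits of the MCM ring spread from 1.11 (SE 0.18) for Mcm3 and 1.09 (SE 0.16) for Mcm5 to 0.37 (SE 0.18) for Mcm2 and -0.24 (SE 0.09) for Mcm7, the last pair not called. Gins2, of the same helicase, was not called either, at 0.05 (SE 0.17).

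In the list of G1 cyclins, inhibitors and E2F factors 14 of 25 tested genes were called higher and 2 lower, with a median of 0.57. Of all genes 17.9% were called higher and 15.2% lower. Among members of at least 20 CPM the largest differences were those of the atypical repressors E2f8 (3.595, SE 0.24) and E2f7 (3.33, SE 0.11) and the activator E2f2 (2.58, SE 0.14), and Cdkn2c, a kinase inhibitor at a median of 10.5 CPM in Cluster 17, was higher by 3.39 (SE 0.28). E2f7 ranged from 75.6 to 177 CPM in Cluster 17 and from 8.75 to 23.8 CPM in Cluster 6. Both members called lower act against the cell cycle: the kinase inhibitor Cdkn1c (p57) had medians of 12.98 CPM in Cluster 17 and 28.9 CPM in Cluster 6 (-0.95, SE 0.14), and the antiproliferative factor Btg2 had medians of 70.2 and 97.3 CPM (-0.45, SE 0.08), a call that was lost in nuclei thinned to 2000 UMIs. The G1 cyclins Ccnd1 and Ccnd3, Cdk4 and the inhibitor Cdkn1b were among the 9 genes not called. Ccnd2 (0.57, SE 0.06), Cdk6 (0.92, SE 0.10), Ccne1 (2.14, SE 0.30) and Ccne2 (1.64, SE 0.12) were called higher.

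All 28 tested DNA repair genes were called higher, with a median of 2.36. Neil3, a DNA glycosylase that unhooks crosslinks, led them with 180 to 336 CPM against 4.14 to 18.7 CPM (4.54, SE 0.12), and Fancd2, of the Fanconi pathway, was also among the leading members (3.29, SE 0.13). Of the topoisomerase, condensin and cohesin list 21 of 23 were called higher (median 1.62), led after Top2a by the cohesin acetyltransferase Esco2 (4.26, SE 0.16) and the condensin subunit Ncapg (4.17, SE 0.14). The cohesin loader Nipbl and release factor Wapl were not called. Of the anaphase-promoting complex list 7 of 13 were called higher and 1 lower (median 0.39), beside 17.9% and 15.2% of all genes. The higher members were led by the activator Cdc20 (3.40, SE 0.20), the ubiquitin-conjugating enzyme Ube2c (3.25, SE 0.21) and the inhibitor Fbxo5 (3.09, SE 0.13). Core subunits of the complex did not move together: Cdc23 (0.53, SE 0.08) and Cdc27 (0.39, SE 0.06) were higher, Anapc4 was lower at -0.43 (SE 0.06), a call lost in thinned nuclei, and Anapc1, Anapc5, Anapc10 and Cdc16 were not called.

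Genes of centriole duplication and primary microcephaly, a group known for small brains in human disease, were called higher in 17 of 20 (median 1.57). Next to Kif14 and Knl1, also on the lists above, stood the citron kinase Cit, which builds the abscission midbody, at 161 to 253 CPM in Cluster 17 and 3.14 to 19.7 CPM in Cluster 6 (4.34, SE 0.13). Chromatin genes differed less: of 20 tested genes of DNA methylation and Polycomb repression 11 were called higher and 1 lower (median 0.41). The shares of all genes were 17.9% and 15.2%. The leading members were the H3K9 methyltransferases Suv39h2 (1.62, SE 0.14) and Suv39h1 (1.603, SE 0.14) and the maintenance methyltransferase Dnmt1 (1.21, SE 0.10), with the Polycomb cofactor Jarid2 lower at -0.37 (SE 0.05).

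**Figure D3:**
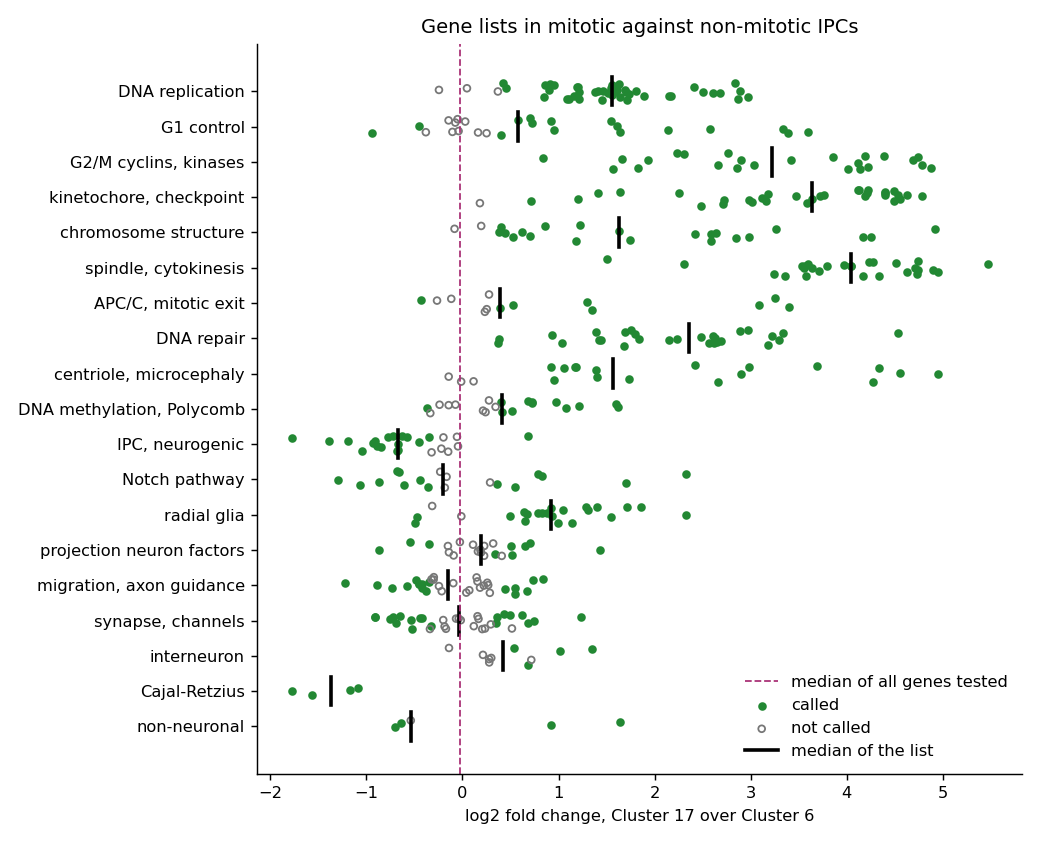
Log2 fold change of each tested gene, Cluster 17 over Cluster 6, by list, with filled points for genes called, open points for genes not called, a black bar at each list's median and a dashed line at the median of all genes tested (-0.03). The spindle, kinetochore and G2/M lists sit farthest to the right (medians 4.04, 3.64 and 3.22), and the IPC list sits left of 0 (-0.67).

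As a share of UMIs, the neurogenic side moved the other way. Nuclei of Cluster 17 held more UMIs each (mean log2 ratio 0.67), so a lower share need not mean fewer molecules per nucleus. Of 24 tested genes of the IPC and neurogenic list 17 were called lower in Cluster 17 and 1 higher (median -0.67). Over all genes tested 15.2% were called lower and 17.9% higher. With Eomes, the leading members of at least 20 CPM were Mfap4, an extracellular matrix protein used as an IPC marker (-0.93, SE 0.10), with 30.5 to 59.9 CPM in Cluster 17 against 61.4 to 103 CPM in Cluster 6, and Gadd45g, a growth arrest gene of the Neurog2 programme (-0.91, SE 0.14), lower in 10 of 11 embryos. Nhlh2, Nhlh1 and Neurog1, basic helix-loop-helix factors at medians of 3.59, 5.20 and 2.36 CPM in Cluster 17, had larger differences at -1.77 to -1.19. Neurog2 itself had medians of 76.1 CPM in Cluster 17 and 139 CPM in Cluster 6 and was lower in 10 of 11 embryos (-0.73, SE 0.09). The exception was Insm1, a zinc finger factor that promotes the delamination of basal progenitors, with medians of 33.5 and 20.3 CPM, which was higher in 10 of 11 embryos (0.68, SE 0.12). Sox4, Sox11, Tcf3, Tcf4, Tcf12 and Zbtb18 were not called, at -0.32 to -0.05.

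Notch ligands and receptors were split. In Notch signalling a ligand on a neighbouring cell triggers cleavage of the receptor, whose inner fragment joins Rbpj to switch on Hes genes, and differentiating cells present the ligand while progenitors receive it. Of 18 tested genes 6 were called higher in Cluster 17 and 8 lower (median -0.21), beside 17.9% and 15.2% of all genes. The targets Hes1 (2.33, SE 0.18) and Hes5 (0.83, SE 0.22) and the receptors Notch2 (1.70, SE 0.09) and Notch3 (0.79, SE 0.10) were higher, while the ligands Dll1 (-0.61, SE 0.12) and Dll3 (-1.07, SE 0.19) and the receptor inhibitor Numbl (-0.87, SE 0.09) were lower. So were Rbpj (-0.36, SE 0.05) and its coactivator Maml3 (-0.66, SE 0.04), while the coactivator Maml2 was higher (0.36, SE 0.04), and the ligase Mib1, the glycosyltransferase Mfng and the atypical ligand Dlk1 were lower at -0.44, -0.68 and -1.29. Hes1 ranged from 11.5 to 63.8 CPM in Cluster 17 and from 1.71 to 7.88 CPM in Cluster 6, and Notch2 from 72.4 to 180 CPM against 25.9 to 48.3 CPM, so neither overlapped. The call of Hes5 was lost in EtOH embryos alone, in batch 1 alone and with equal numbers of nuclei. Jag1, also a ligand, was higher at 0.54 (SE 0.20), and Notch1, at 0.29 (SE 0.08), did not pass the fold required.

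Radial glia genes were called higher in the mitotic IPCs in 19 of 23 tested members and lower in 2 (median 0.92), beside 17.9% and 15.2% of all genes. The summed level of the 24 genes overlapped, at 6136 to 7785 CPM in Cluster 17 and 5498 to 7947 CPM in Cluster 6. This sum was higher in Cluster 17 in 9 of 11 embryos. Besides Hes1 the leading members were Ddah1, which clears methylated arginines (1.71, SE 0.15), at 88.4 to 236 CPM against 30.1 to 65.0 CPM, and the endothelin receptor Ednrb (1.54, SE 0.22). Sox2, the progenitor factor, ranged from 21.3 to 31.2 CPM in Cluster 17 and from 7.31 to 15.998 CPM in Cluster 6 (1.14, SE 0.14). Pax6 (0.49, SE 0.06) and the glutamate transporter Slc1a3 (0.93, SE 0.07) were higher in 11 of 11 embryos with overlapping ranges. These levels remained below those of the RGCs, where Cluster 2 had means of 99.4 CPM for Hes1, 45.1 for Sox2 and 412 for Slc1a3, against medians of 24.3, 23.6 and 182 in Cluster 17. The members called lower were the cortical patterning factors Zbtb20 (-0.49, SE 0.08) and Lhx2 (-0.48, SE 0.05).

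Projection neuron factors did not move together. Of 21 tested 6 were called higher in Cluster 17, 3 lower and 12 not called (median 0.19), where 17.9% of all genes were called higher and 15.2% lower. The splicing factors Rbfox1 and Rbfox3 (NeuN), both neuronal, went in opposite directions: Rbfox1 ranged from 975 to 2832 CPM in Cluster 17 and from 486 to 1100 CPM in Cluster 6 (1.43, SE 0.16), and Rbfox3 from 567.8 to 852 CPM against 946 to 1487 CPM (-0.87, SE 0.08), each the same way in all 11 embryos. Tbr1, a factor of deep layer neurons, was lower in 9 of 11 embryos (-0.55, SE 0.11), and its call was lost in EtOH embryos alone, in batch 1 alone and in thinned nuclei. Neurod2 and Neurod6 were not called, at 0.19 (SE 0.08) and -0.03 (SE 0.07).

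Of 32 tested genes of migration and axon guidance 11 were called lower and 6 higher (median -0.16), the higher side being near the 17.9% of all genes. Lower calls made up 15.2% of all genes. The receptor Ephb1 (-1.23, SE 0.16) and the netrin receptor Dcc (-0.89, SE 0.05) led the lower side, Dcc from 6120 to 16694 CPM in Cluster 17 and from 14761 to 25556 CPM in Cluster 6, among the most abundant transcripts of either. The adhesion molecule Ncam1 (0.73, SE 0.07) and the centrosomal protein Nin (0.84, SE 0.20) were higher, the call of Nin being lost in saline embryos alone, in batch 2 alone and in thinned nuclei. Of 33 synaptic and channel genes 11 were lower and 8 higher (median -0.04), beside the same shares of all genes, with the calcium channel Cacna1a (-0.91, SE 0.14) and the vesicle protein Syn2 (-0.91, SE 0.07) lower and the potassium channel Kcnq3 higher (1.23, SE 0.11), from 544 to 1071 CPM against 232 to 435 CPM. Grik3, a kainate receptor subunit, was also called higher at 0.68 (SE 0.21), in 8 of 11 embryos, and lost its call in 6 of 23 alternatives.

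Among genes of at least 20 CPM in Cluster 6, the 10 largest differences in the lower direction with 1 sign in all 11 embryos belonged to genes on none of the lists. Wnt5a, a ligand of non-canonical Wnt signalling, ranged from 1.77 to 9.45 CPM in Cluster 17 and from 13.3 to 51.2 CPM in Cluster 6 (-2.41, SE 0.18). Synpr, a synaptic vesicle protein, ranged from 39.5 to 138 CPM against 162 to 409 CPM (-1.83, SE 0.14). The transcription factors Stat3, which relays cytokine signals (-1.65, SE 0.12), and St18, a zinc finger protein (-1.70, SE 0.09), and the collapsin response protein Dpysl4 (-1.80, SE 0.14) were lower in 11 of 11 embryos, without overlap for Stat3, Dpysl4, Synpr and Wnt5a. Rmst, a long noncoding RNA, had medians of 486 CPM in Cluster 17 and 1659 CPM in Cluster 6 (-1.74, SE 0.11). The others were Trhde, Tmem132cos, Gm26700 and Gsap, at -2.02 to -1.63. Tmem132cos is annotated antisense to Tmem132c and Gm26700 opposite Rmst. The strand used in counting is not stated beyond the authors' use of default Cell Ranger settings, and the part of reads from such partners was not tested.

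Markers of other cell types moved in part with the clusters. Of the Cajal-Retzius list all 4 tested genes were called lower in Cluster 17 (Nhlh2, Ebf3, Reln and Cacna2d2, median -1.37), beside 15.2% of all genes. The defining marker Trp73 had a median of 1.43 CPM in both clusters. The summed level of the 7 genes was 61.4 to 209 CPM in Cluster 17 and 189 to 611 CPM in Cluster 6. Of 10 tested interneuron genes 4 were called higher, beside 17.9% of all genes, namely Dlx1 (1.35, SE 0.31), Dlx2, Dlx6os1 and Gad2. The 14 genes of the list summed to 213 to 1250 CPM in mitotic IPCs, 223 to 1462 CPM in non-mitotic IPCs and 2146 to 3613 CPM in striatal neurons. The sum was higher in Cluster 17 in 6 of 11 embryos, and Dlx6os1 lost its call in 18 of 23 alternatives, 8 of them leaving out 1 embryo (E1-1, E2-1, E2-2, E2-3, E2-4, S1-1, S1-2 or S2-4). Dlx1 lost its call in thinned nuclei, in EtOH embryos alone and in batch 1 alone, and Gad2 in saline embryos alone and in 3 other alternatives. Gad1 was not called (0.30, SE 0.31). Of 5 tested non-neuronal genes 2 were higher, the microglial receptor P2ry12 (1.64, SE 0.24) and Mcam, and 2 were lower, the haemoglobins Hba-a1 and Hbb-bs, while of the defining markers C1qa, Col1a1 and Olig2 had medians of 0 to 0.62 CPM in both clusters, Pecam1 1.95 CPM in Cluster 17 and 3.55 CPM in Cluster 6, Cldn5 1.299 and 2.16 CPM and Pdgfra 0 and 1.04 CPM, and the summed list came to 18.97 to 108 CPM in Cluster 17 and 26.9 to 126 CPM in Cluster 6. The part of such cells or of their RNA in the differences above was not tested.

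The genes called had a longer median span than all genes tested, in either direction. The median span was 39.7 kb for genes called higher in Cluster 17 and 35.3 kb for genes called lower. For all genes tested with an annotated span it was 31.0 kb. The quartile ranges overlapped, at 17.2 to 95.4, 15.5 to 90.0 and 14.0 to 76.1 kb in that order. The difference in span was not tested.

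To ask how far the difference was shared with the other progenitors, the same contrast was taken in RGCs, Cluster 2 (RGC 1) over Cluster 12, the non-mitotic RGCs, and the difference between both contrasts was fitted in 1 model. These calls describe clusters in the same way. The IPC difference was called above the RGC difference for 1674 of 11883 genes (14.1%) and below it for 1094 (9.21%), while scaling by total UMIs alone gave 2078 and 808.

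The mitotic lists were higher in Cluster 17 than in Cluster 6 and in Cluster 2 than in Cluster 12, by more in IPCs. Their summed levels were close in Clusters 17 and 2, with medians of 1686 and 1549 CPM (G2/M), 4094 and 4057 CPM (kinetochore) and 5423 and 5342 CPM (spindle). Cluster 6 stood below Cluster 12, at 246 against 445, 615 against 1122 and 517 against 1036 CPM in the same order. Over all genes 1140 (9.59%) were called higher in Cluster 2 over Cluster 12 and 1034 (8.7%) lower. Of the 85 mitotic genes 83 were called higher there, with a median log2 fold change of 2.70 against 3.75 in IPCs in the same fit, and the IPC difference was called larger for 66 and smaller for 0. Top2a differed by 2.97 (SE 0.14) in RGCs, which left an excess of 1.92 (SE 0.21) in IPCs. Its mean was 731 CPM in Cluster 2 and 94.7 CPM in Cluster 12. Ccnb1 had an excess of 0.19 and Cdc20 of 0.08, neither called.

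DNA replication divided the progenitors more clearly. In RGCs 13 of 47 genes of this list were called higher in Cluster 2 and 8 lower, beside 9.59% and 8.7% of all genes. The median was 0.06, against 1.54 in IPCs. For 46 of 47 the IPC difference was called larger, beside 14.1% of all genes. The summed level of the list had a median of 3098 CPM in mitotic and 1050 CPM in non-mitotic IPCs, and of 3666 CPM in the RGCs of Cluster 2 and 3713 CPM in those of Cluster 12, so Cluster 6 alone of these progenitor clusters was low, and its range of 840 to 1462 CPM did not reach the others. The early projection neurons of Cluster 9 were lower still at a median of 522 CPM. Mcm10 differed by 0.61 (SE 0.10) in RGCs and Pcna, the polymerase clamp, by -0.30 (SE 0.11), against 2.97 and 1.54 between the IPC clusters. DNA repair genes also differed more in IPCs, with a median of 2.34 against 0.74 in RGCs and 27 of 28 called larger in IPCs. Unlike replication, most were higher in the RGC contrast too, with 19 of 28 called higher and 0 lower. The part of cell cycle phase in these clusters was not tested.

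**Figure D4:**
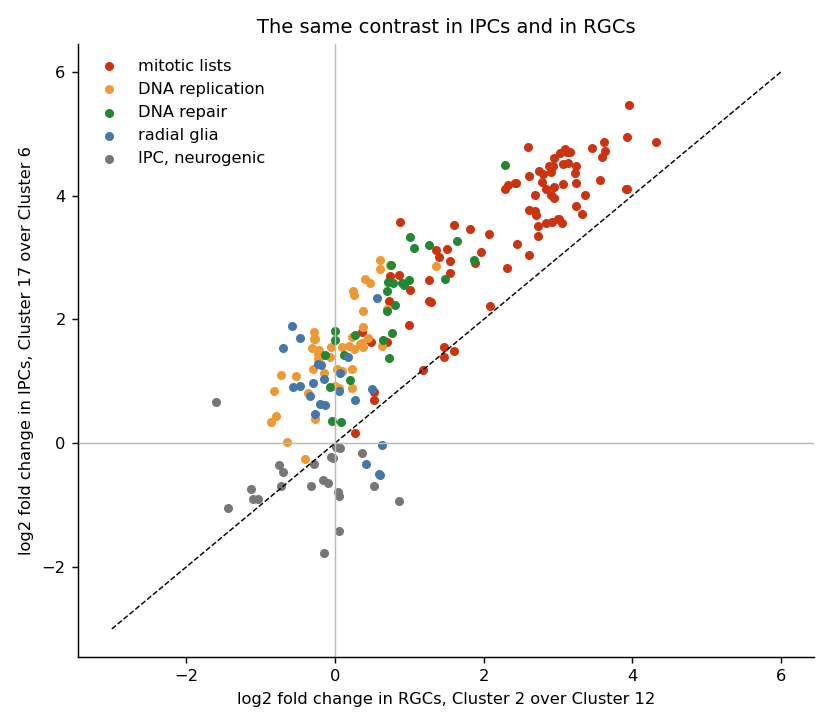
Log2 fold change in IPCs (Cluster 17 over Cluster 6) against that in RGCs (Cluster 2 over Cluster 12) for genes of 5 groups of lists, with a dashed line where both are equal. Mitotic genes lie high on both axes and mostly above the line, and DNA replication genes lie near 0 in RGCs (median 0.06) and above it in IPCs (median 1.54).

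Most radial glia genes were higher in Cluster 17 than in Cluster 6 but did not differ alike in RGCs, where the median was -0.16. There 6 of 24 were called in each direction, beside 9.59% of all genes higher in Cluster 2 and 8.7% lower. The IPC difference was called larger for 17 and smaller for 4, beside 14.1% and 9.21% of all genes. Of 23 neurogenic genes 8 were called lower and 2 higher in Cluster 2, the higher side being near the share of all genes. For these genes the IPC difference was called below that in RGCs for 8 and above it for 2. Eomes and Gadd45g were lower in Cluster 17 than in Cluster 6, and in the RGC contrast they were lower in Cluster 2. Eomes differed by -1.44 (SE 0.18) in RGCs, and its difference of 0.40 (SE 0.22) between both contrasts was not called. Mfap4 stood at 0.87 (SE 0.31) in RGCs and was lower in IPCs, a difference of -1.80 (SE 0.34) that was called. Insm1 went in opposite directions, by -1.61 (SE 0.16) in RGCs, an excess of 2.27 in IPCs.

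The genes with the largest differences between both contrasts, by the rule, all changed sign between them. Pdzph1, Stac, Eva1c, Acsbg1 and Ano1 were higher in Cluster 17 than in Cluster 6 and lower in Cluster 2 than in Cluster 12, with differences of 2.77 to 4.12, and Pdzph1 had a median of 12.4 CPM in Cluster 17 against 1.896 CPM in Cluster 6. Between the IPC clusters the call of Ano1 was lost without S1-1, in EtOH embryos alone and in batch 2 alone, and that of Stac in saline embryos alone. Tgfbr3 (-5.86), Gm29683, Tmem132cos, Gm26700 and Tmem132c (-4.81) went the other way. Tgfbr3, a coreceptor of the TGF-beta family, ranged from 0 to 10.6 CPM in Cluster 17 and from 7.09 to 110 CPM in Cluster 6, while the RGCs had means of 13.4 CPM (Cluster 2) and 3.57 CPM (Cluster 12). Tmem132c had means of 366 CPM in the mitotic and 38.6 CPM in the non-mitotic RGCs. Wnt5a followed the same pattern, lower in the mitotic IPCs and higher in Cluster 2 (1.11, SE 0.24).

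Mitotic IPC nuclei held more UMIs. The median UMIs per nucleus were 5520 to 11058 in Cluster 17 (median of embryos 8031) and 3188 to 7387 in Cluster 6 (4954), a mean log2 ratio of 0.67 that was positive in 11 of 11 embryos (two-sided exact permutation test of signs, p = 0.000977, the smallest possible with 11 embryos, which speaks of regularity over embryos, since the clusters were drawn from these nuclei). The median genes per nucleus were 2586 to 3621 against 1685 to 2827, with a mean log2 ratio of 0.47 in the same test and at the same p.

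Whether EtOH changed the balance of both clusters was tested over embryos. Cluster 17 made up 21.9% ± 4.40 of IPC nuclei (SD, n = 5 embryos) after saline and 20.4% ± 2.91 (n = 6) after EtOH. The lowest and highest embryos were 15.3% and 26.7% after saline and 15.9% and 23.8% after EtOH, so the groups overlapped. The difference of -1.58 percentage points did not pass (two-sided exact permutation test over 462 splits, p = 0.485, adjusted over 3 shares p = 0.728, and p = 0.481 within batches). As shares of all nuclei, Cluster 17 was 2.01% in both groups (p = 0.974 by the exact test) and Cluster 6 was 7.22% ± 1.2496 and 7.82% ± 1.03 (p = 0.411 by the exact test). With 2 dams per treatment an exact permutation over dams could not pass.

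The step in depth from Cluster 6 to Cluster 17 was mostly larger in EtOH than in saline embryos. The tests of it took littermates as independent, and with 2 dams per treatment none over dams could pass. The ratio of median UMIs was 1.39 to 1.58 after saline (median 1.53) and 1.46 to 1.78 after EtOH (median 1.67), with the 5 highest ratios all in EtOH embryos. The difference of 0.14 on the log2 scale had p = 0.0325 in the exact permutation test, 0.0433 adjusted over the 4 comparisons of this kind, and p = 0.0524 within batches, which did not pass. For genes per nucleus the ratio was 1.246 to 1.35 after saline and 1.302 to 1.57 after EtOH (log2 difference 0.15, exact p = 0.0173, adjusted 0.0346, within batches 0.0238). Batch means of the UMI ratio were 1.51 after saline and 1.76 after EtOH in batch 1 and 1.504 and 1.61 in batch 2. In the RGC clusters the ratio was 1.49 to 1.55 after saline and 1.38 to 1.54 after EtOH (exact p = 0.16), and the log2 ratio of the IPC to the RGC step differed between treatments by 0.18 (exact p = 0.0108, adjusted 0.0346). The treatment tests of these ratios were added after the values were seen, and the adjustment does not cover that choice. Median UMIs were lower in EtOH than in saline embryos in both clusters, with some overlap. They were 3188 to 5306 against 4944 to 7387 in Cluster 6 and 5520 to 8203 against 7832 to 11058 in Cluster 17. The part of library depth was not tested. Leaving out E2-2 gave the smallest p (0.00794), and leaving out any of S1-1, S1-2, S2-2, E1-1, E1-2, E2-1 or E2-3 gave p between 0.0524 and 0.0714 by the exact test.

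**Figure D5:**
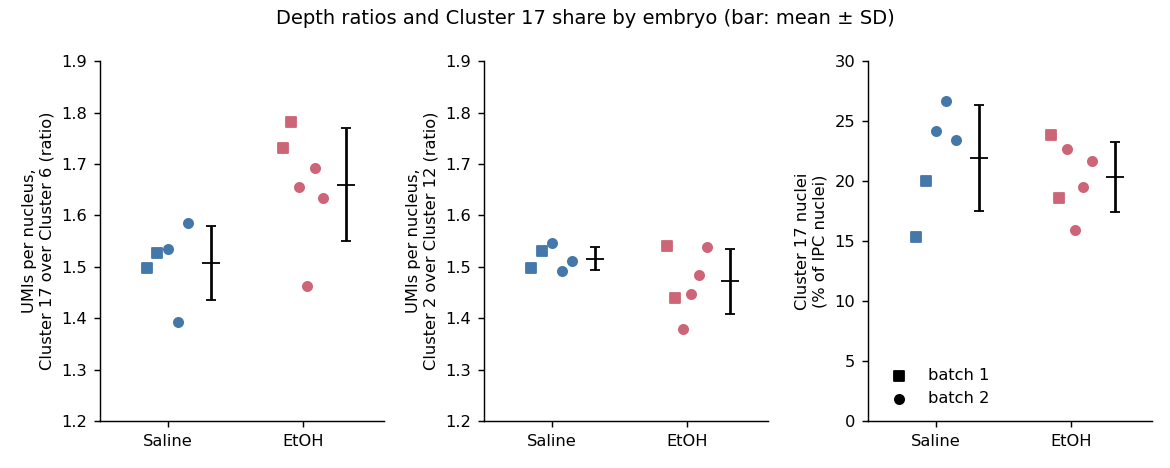
Ratio of median UMIs per nucleus between the IPC clusters (left) and between the RGC clusters (middle), and percentage of IPC nuclei in Cluster 17 (right), each point being 1 embryo, squares for batch 1 and circles for batch 2, with bars for mean ± SD. The ratio axes start at 1.2. The IPC ratio is mostly higher in EtOH embryos (1.46 to 1.78) than in saline embryos (1.39 to 1.58), and the shares overlap.

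Whether the expression difference between mitotic and non-mitotic IPCs itself changed with EtOH was tested gene by gene with a cluster-by-treatment term. Of 11265 genes 1 passed (0.00888%) and 615 had an unadjusted p under 0.05 (5.46%). The gene was Nim1k, a kinase related to AMPK (chromosome 13, 119710094 to 119755882, minus strand). In Cluster 17 it stood at 10.6 to 23.6 CPM in saline embryos and at 11.6 to 35.4 CPM in EtOH embryos, and in Cluster 6 at 9.02 to 16.9 CPM and 2.96 to 8.86 CPM. After saline the clusters were alike, with means of 14.8 CPM ± 5.06 (SD) and 13.1 CPM ± 3.71, and after EtOH Cluster 17 was higher, with 27.5 CPM ± 8.62 and 6.06 CPM ± 2.33. Over all embryos Nim1k was higher in RGCs, with means of 73.6 CPM in Cluster 2 and 77.8 CPM in Cluster 12. The part of RGC nuclei or RNA in this difference was not tested. The log2 difference between treatments was 1.91 (SE 0.34, adjusted p = 0.0427 in edgeR's quasi-likelihood test over all genes). It rested on 208 UMIs in Cluster 17 and 277 in Cluster 6 over all embryos, and over 19 alternatives it passed in 6, with adjusted p from 0.000367 to 0.756. Leaving out any 1 of E1-1, E1-2, E2-1, E2-3, E2-4, S1-1, S1-2 or S2-2 ended the call, as did a cluster-by-batch term, DESeq2, thinning, batch 2 alone and counts summed per dam, while the direction held in all 19.

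The next genes by p were Zic1, Fgf12 and 6430573F11Rik, with adjusted p of 0.457 for the first pair. Of the 85 mitotic genes 0 passed in edgeR's test (DESeq2 called 0 of all genes), 10 had an unadjusted p under 0.05 (11.8%, against 5.46% of all genes), and their median log2 difference was 0.12 against -0.01 over all genes. For the replication list 1 of 47 had an unadjusted p under 0.05, with a median of -0.01, and for the IPC list 4 of 24, with a median of -0.19. For Top2a the mean in Cluster 17 was 752 CPM ± 125 (SD) after saline and 820 CPM ± 94.2 after EtOH, and Eomes stood at 233 CPM ± 55.4 and 176 CPM ± 17.004. Treatment within Cluster 17 alone was not tested, and the cluster-by-treatment term had edgeR adjusted p of 0.998 for Top2a and 0.94 for Eomes.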

How the data were processed

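Nuclei from the cortices of mouse embryos were sequenced by 10x Chromium snRNAseq. The authors aligned reads with Cell Ranger to mm10 (versions not given in the sources used here), filtered and clustered nuclei, and deposited UMI counts per gene and nucleus, 1 table for each of 11 embryos and 25 clusters. Cluster membership was taken from the tables. Depth was 14078316 to 83061737 UMIs per embryo, and doublets were not called.

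Counts were summed per embryo and cluster and fitted with edgeR 4.0.16 (limma 3.58.1, R 4.3.3): TMM scaling, its default filter on low counts, quasi-likelihood tests with Benjamini-Hochberg adjustment over all genes tested, and the embryo as a block, since both clusters come from the same animal. A cluster-by-treatment term tested EtOH. Shares and depths per embryo were tested by exact permutation (NumPy 2.4.6, Python 3.11.15). SciPy 1.17.1 held the counts per nucleus. All tests take littermates as independent, with 2 dams per treatment. DESeq2 1.42.0, other scalings, no filter, no block, equal numbers of nuclei, thinned nuclei, single batches or treatments and leaving out each embryo were alternatives. The treatment tests of the depth ratios were added after seeing the data.

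The clusters compared, the gene lists and the tests were chosen with earlier results of these data known. Named genes, all but the markers and the treatment genes at 20 CPM or more in 1 cluster, were the markers, in each list the 3 called members with the largest log2 fold change and up to 2 called against the list's direction, the 10 largest in each direction with 1 sign in all 11 embryos, the genes called by treatment with the next 3 by p, and the 5 largest in each direction against RGCs. Others named for their role (Cdk1, Ccnb1, Neurog2 and list members not called or outside this rule) were chosen after their values were seen. A few genes that this rule names are not reported here. Gene positions are from GENCODE M21 on GRCm38 and promoters from RefSeq on GRCm38.p6. The steps across genes were tested on simulated data.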

Additional observations from a re-analysis of the deposited data

Results flagged for a closer look

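Of 16 sets of embryo values examined for a value far from its group, 2 held one, and chance alone flags about 1 in 20 such sets. Top2a in Cluster 17 of the saline embryos was highest in S2-4, at 974 CPM, where the other saline embryos lay between 683 and 710 CPM. Mki67 in Cluster 17 of the EtOH embryos was highest in E2-2, at 392 CPM, against 242 to 282 CPM in the other EtOH embryos and 323 to 359 CPM in the saline embryos.

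The other results were flagged because the step from Cluster 6 to Cluster 17 differed between treatments. The log2 difference of Nim1k between EtOH and saline was 1.91. The log2 ratio of median UMIs per nucleus differed by 0.14 and that of median genes per nucleus by 0.15, both larger after EtOH.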

How the results depend on the processing

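The count of 3730 genes called between the IPC clusters fell to 2332 in nuclei thinned to 2000 UMIs (7804 tested) and to 913 with a fold over 2 or under 0.5. It was 2905 of 9506 tested without the embryo as a block, where the pairing is given by the animal, 4083 without a filter, 3514 in DESeq2, and 3464 to 3758 leaving out 1 embryo. Of the main calls 1980 were shared by the thinned fit, and 10 took the other sign there, 7 in EtOH embryos alone and 5 in batch 1 alone. Of 94 called genes picked by the rule for named genes or as Cdk1, Ccnb1 and Neurog2 were, 81 kept their call in every alternative run for them, apart from the 2-fold limit. The other genes named were not followed in this way. DESeq2, run without the filter, moved the median of all genes from -0.03 to 0.12.

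The single gene called by treatment became 14 without a filter, 2 in thinned nuclei and 6 with counts summed per dam, and 0 in DESeq2 (347 at an unadjusted p under 0.05), with a cluster-by-batch term (661) and in batch 2 alone (620). It ranged from 0 to 1 leaving out 1 embryo, with 1 only without E2-2, S2-1 or S2-4. In batch 1 alone the log2 ratio of UMIs was 0.70, with an exact p of 0.125, the smallest that 4 embryos allow. The RGC comparison gave 2768 genes (60.5% higher), 2886 by total UMIs (72.0% higher), 2924 without a filter (47.8% higher) and 2527 to 2815 leaving out 1 embryo. Cluster 17 gave as few as 42 nuclei per embryo, which limits genes of low counts.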
